A study of Mus musculus with 6 samples.

Results

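Integrins and the adaptors that tie them to actin were examined in tumour endothelial cells that carried, or did not carry, injected nanoparticles. The group was taken as 37 genes matched by symbol: 17 integrin alpha subunits, 8 beta subunits and 12 adaptors and kinases of the focal adhesion, out of 49315 gene IDs in the count files and 23989 genes tested. All 37 passed the filter on low counts. The cells came from 4T1 tumours, a transplantable mouse mammary carcinoma, implanted into an inguinal mammary fat pad of Balb/c females at 8 weeks of age and grown for 2 weeks. Every mouse received 1E12 gold nanoparticles of 50 nm with 5K mPEG and Cy5 through the tail vein 1 hour before harvest. Cells were depleted of CD45+ leukocytes, enriched for CD31+ cells and sorted by flow cytometry into a nanoparticle-positive (NP+) and a nanoparticle-negative (NP-) fraction, at 10 weeks of age. There were 3 NP+ and 3 NP- libraries, with 1 of each from every tumour (MET-106, MET-107, MET-108). Both fractions come from injected, tumour-bearing animals of a single tumour model, strain and sex, so no library of uninjected or tumour-free mice enters the comparison.

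Integrins are transmembrane receptors made of 1 alpha and 1 beta subunit that bind extracellular matrix and, on leukocytes, other cells. Talins and kindlins bind the beta tail and switch the receptor to its active state, and vinculin, zyxin, parvins and integrin-linked kinase connect it to actin, while focal adhesion kinase passes on the signal. In endothelial cells the fibronectin receptor alpha5beta1, the collagen receptors alpha1beta1 and alpha2beta1, the laminin receptors alpha3beta1, alpha6beta1 and alpha6beta4 and the vitronectin receptor alphavbeta3 are known for their parts in vessel growth and barrier function.

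Libraries held 41830256 to 58089600 gene counts in NP+ and 20856410 to 44694267 in NP-. Levels are given as CPM (counts scaled to a common library size by tested counts and TMM factors) when 1 gene is compared between libraries, and as TPM (counts divided by exon length and scaled to a common total) when genes are compared with each other. Wherever 3 values are listed they are those of MET-106, MET-107 and MET-108 in that order. The summed level of 10 endothelial markers was 10830 to 13200 CPM in NP+ and 7106 to 10110 CPM in NP-. Pecam1, the CD31 gene, reached 2815 CPM or more in every NP+ library and 1931 CPM or more in every NP- library. The NP- library of MET-106 stood apart from the other NP- libraries in its likeness to NP+ and in its fibroblast and epithelial markers. Across genes, the log2 CPM of the NP- libraries of MET-107 and MET-108 correlated at 0.832 with each other and at 0.832 to 0.883 with the NP+ libraries. The NP- library of MET-106 correlated at 0.838 and 0.876 with them, but at 0.945 to 0.951 with the NP+ libraries. Its summed fibroblast markers reached 4164 CPM, against 177 and 75.6 CPM in the other NP- libraries, and 23.9 to 71.7 CPM in NP+. Its epithelial markers reached 585 CPM, against 38.3 and 20.9 CPM in the other NP- libraries and 9.36 to 13.7 CPM in NP+. Each marker of the lists named here had a count in at least 1 library of each group. Pericyte and smooth muscle markers summed to 98.6 to 125 CPM in NP+ and 164 to 893 CPM in NP-, neutrophil markers to 14.8 to 19.4 CPM in NP+ and 37.4 to 184 CPM in NP-, and lymphocyte markers to 5.92 to 6.18 CPM in NP+ and 15.8 to 37.6 CPM in NP-. Macrophage markers summed to 140 to 281 CPM in NP+ and 80.5 to 239 CPM in NP-, with overlap. Most of the NP+ sums came from Cd14, whose lowest NP+ value was 123 CPM and highest NP- value 117 CPM. Of the 10 macrophage genes, Cd14 alone was higher at an unadjusted p under 0.05 in edgeR's test. Csf1r, Adgre1 and Lyz2 were lower, and 6 were neither. The highest NP+ value of Csf1r, 3.40 CPM, lay below its lowest NP- value, 6.86 CPM. The part of these other cells in the integrin values was not tested. In these sorted bulk samples, fewer cells of a type and less RNA per cell cannot be told apart.

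**Figure D1:**
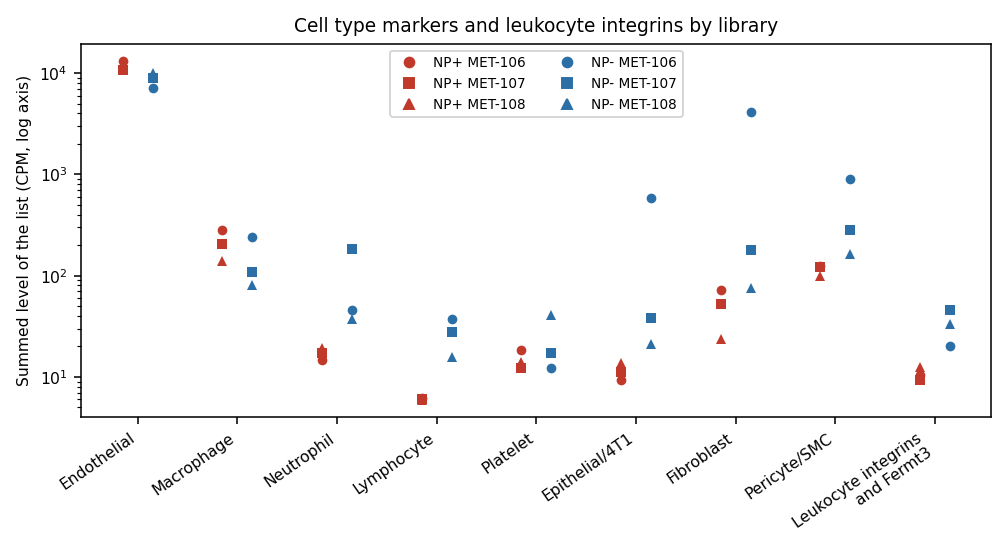
Summed level (CPM, log axis) of 10 markers for each of 8 cell types, and of 7 leukocyte integrins and kindlin-3 genes, with 1 point per library, NP+ in red to the left of NP- in blue. The NP- library of MET-106 lies far above the others for epithelial and fibroblast markers, and the leukocyte integrins lie between 9.32 and 12.6 CPM in NP+ and between 20.2 and 46.1 CPM in NP-.

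Most of the more abundant subunits and adaptors stood higher in NP+ cells, with Itga1, Itga9 and Tln2 among the exceptions, and most of the scarce genes, among them leukocyte subunits, stood lower. Itgb1 and Itgb3 were 2.75 and 2.67 times as high in NP+, Itga3 and Zyx 2.09 and 2.1 times, whereas Itgb2 was 4.94 times as high in NP-. None of the 37 genes passed an adjusted p of 0.05 in edgeR's quasi-likelihood test over all 23989 genes, where 0.0125% of genes were called higher and 0.0167% lower. The adjusted p of the 37 ran from 0.0916 for Itgb3 to 0.887 for Itga2b. At an unadjusted p under 0.05, 12 were higher and 13 lower, beside 8.01% and 15.4% of all genes. With the tumour as a block these counts were 10 and 11, beside 7.85% and 14.6%, and again 0 passed the adjusted threshold, beside 0.00834% higher and 0.0542% lower of all genes. Limma-voom likewise gave 0, beside 0.05% and 0.025%, as did RLE scaling (0.0125% and 0.0167%), upper-quartile scaling (0.0125% and 0.075%) and total-count scaling (0.00834% and 0.0375%). DESeq2 on the same counts called 9 higher and 7 lower, beside 4.03% and 9.86% of all genes. Without the low-count filter edgeR called 5 higher and 3 lower, beside 1.19% and 1.55%, and among genes with at least 5 CPM in 3 libraries it called 0 higher and 1 lower, Itgb2, beside 0.169% and 0.815%. The authors' deposited table called 9 higher and 5 lower of the 36 genes to which it gives an adjusted p, beside 3.71% and 9.45% of its genes. A second gene ID with the symbol Itgam is not among the 36. The authors' values for it were a log2 fold change (NP+ over NP-) of -5.47 and an adjusted p of 0.0304. It had 0, 1 and 1 counts in NP+ and 7, 13 and 43 counts in NP-.

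The direction followed the level of the gene, and the same held across all genes. Of the 22 genes with a mean of at least 5 CPM, 12 were higher and 2 lower at an unadjusted p under 0.05, beside 17.5% and 5.48% of all genes above that level. Values did not overlap for 13 higher and 1 lower of the 22, beside 27.3% and 5.34%. Their median log2 fold change (NP+ over NP-) was 0.56, against 0.24 for all genes above that level. Of the 15 genes with a mean under 5 CPM, 0 were higher and 11 lower, beside 0.198% and 23.5% of all genes under it. Values did not overlap for 0 higher and 11 lower of the 15, beside 1.71% and 24.1%. Their median was -1.87, against -1.46. Over all 37 the median was -0.35, against -0.29 over all tested genes. The NP+ and NP- values did not overlap for 13 higher and 12 lower genes, beside 13.3% and 15.6% of all genes. In 3 of 3 tumours 15 were higher and 12 lower, beside 20.0% and 30.2%. The median log2 ratio within a tumour was 0.28 in MET-106, -0.57 in MET-107 and 0.25 in MET-108.

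**Figure D2:**
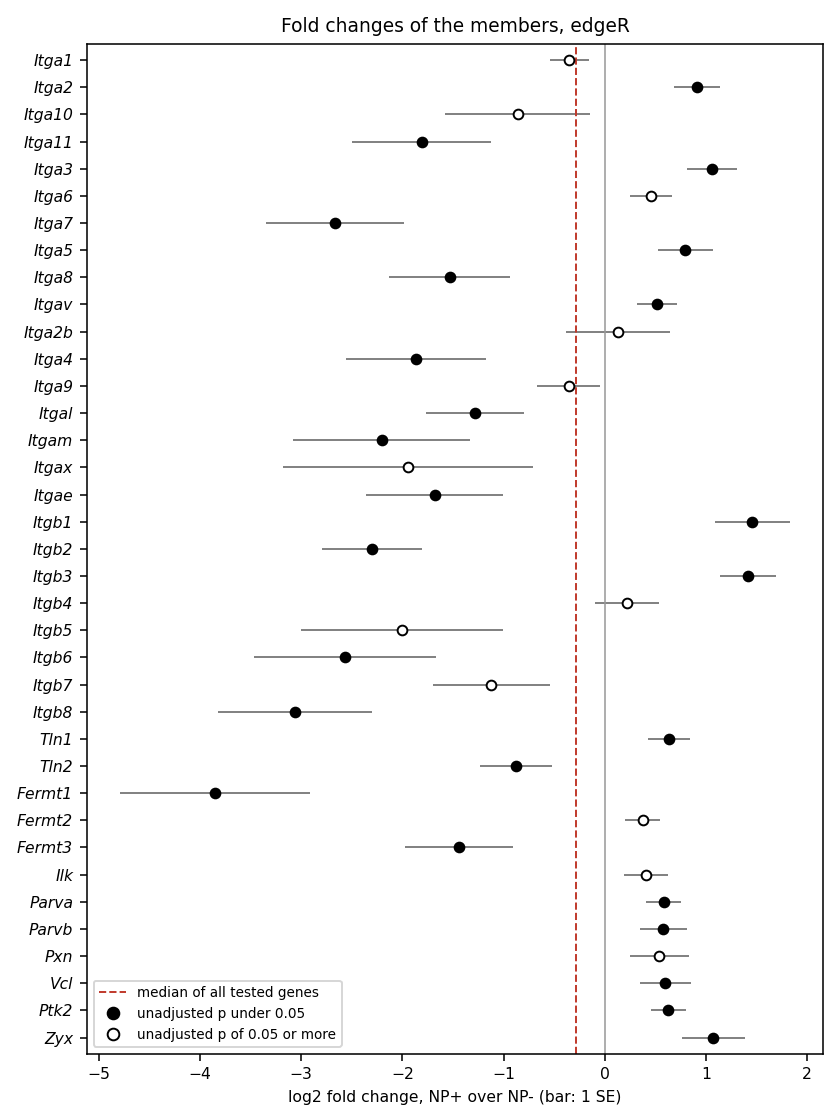
Log2 fold change (NP+ over NP-, edgeR, bar 1 SE) of the 37 genes, grouped by role, with filled points for an unadjusted p under 0.05. The dashed line is the median of all tested genes, -0.29, and Itgb1 and Itgb3 lie farthest to the right, at 1.46 and 1.42.

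Among beta subunits, Itgb1 (chr8:128685654-128733200, plus strand, GRCm38) encodes the partner of most matrix-binding alpha subunits. It stood at 2263, 1963 and 2375 CPM in NP+ and at 1209, 817 and 373 CPM in NP-. Every NP+ library lay above every NP- library, and MET-108 had the widest gap. Its log2 fold change was 1.46 (SE 0.37, edgeR adjusted p = 0.122). Itgb3 (chr11:104608000-104670476, plus strand), which pairs with the alphav and alphaIIb subunits, stood at 564, 502 and 598 CPM in NP+ and at 123, 243 and 257 CPM in NP-. No NP- library reached an NP+ library, and the NP- library of MET-106 was the lowest. The log2 fold change of Itgb3 was 1.42 (SE 0.28, edgeR adjusted p = 0.0916). Without the NP- library of MET-106, Itgb1, Itgb3, Itga2 and Itga3 passed the adjusted threshold as higher and Itgae, Itgb2 and Itgb8 as lower, while all genes were called at 3.48% and 4.86%. Without the NP- library of MET-108, Itgb3 passed as higher, while all genes were called at 0.428% higher and 0.671% lower. Leaving out any other library, or any tumour, left 0 of the 37 past it. With the NP- library of MET-106 left out, 11 of the 37 were higher and 12 lower at an unadjusted p under 0.05, beside 12.3% and 22.4% of all genes. The log2 fold change was then 1.95 for Itgb1 and 1.20 for Itgb3. It was 1.16 for Itga3, 0.60 for Itga5 and 1.23 for Zyx, and -2.35 for Itgb2.

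Itgb4, the beta subunit of the hemidesmosome laminin receptor, stood at 77.9, 46.0 and 78.1 CPM in NP+ and at 63.8, 74.4 and 34.98 CPM in NP-. The groups overlapped, and the log2 fold change of 0.22 (SE 0.32) turned to -0.02 under upper-quartile scaling and -0.10 under scaling by total counts. Itgb5, an RGD-binding beta subunit that pairs with alphav, ranged over 1.05 to 1.98 CPM in NP+ and 0.303 to 11.3 CPM in NP-, so the groups overlapped as well.

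Among alpha subunits, Itga5 (chr15:103344286-103366763, minus strand), the fibronectin receptor subunit, had the highest level per length at 456 ± 68.1 TPM in NP+ and 296 ± 115 TPM in NP- (SD, n = 3). By library it stood at 883, 671 and 810 CPM in NP+ and at 280, 488 and 592 CPM in NP-. All NP+ libraries were above all NP- libraries, with the lowest value in the NP- library of MET-106. Its log2 fold change was 0.80 (SE 0.27, edgeR adjusted p = 0.154). Itga3 (chr11:95044474-95076801, minus strand), a laminin receptor subunit, stood at 206, 213 and 283 CPM in NP+ and at 119, 79.0 and 138 CPM in NP-, again with no overlap. Its log2 fold change was 1.06 (SE 0.24, edgeR adjusted p = 0.111).

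Itga2 (chr13:114835916-114932041, minus strand), a collagen receptor subunit, stood at 58.2, 64.5 and 61.5 CPM in NP+ and at 39.6, 34.4 and 23.9 CPM in NP-. The NP+ libraries were close together and all above NP-, with a log2 fold change of 0.91 (SE 0.22, edgeR adjusted p = 0.120). Itga1, the other abundant collagen receptor subunit, stood lower in NP+ in MET-107 and MET-108. Itga1 stood at 169, 165 and 166 CPM in NP+ and at 164, 234 and 240 CPM in NP-. The groups overlapped through the NP- library of MET-106, and the log2 fold change was -0.35 (SE 0.19, edgeR adjusted p = 0.287). Its unadjusted p, 0.0995 with TMM, was 0.0196 under upper-quartile scaling and 0.0089 under scaling by total counts.

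Itgav, the alpha subunit of the vitronectin receptor, stood at 40.3, 46.7 and 39.1 CPM in NP+ and at 26.2, 30.8 and 31.3 CPM in NP-. The groups did not overlap, and the log2 fold change was 0.52 (SE 0.20, edgeR adjusted p = 0.176). Itga6, a laminin receptor subunit, ranged over 139 to 180 CPM in NP+ and 95.5 to 137 CPM in NP- and stood higher in 3 of 3 tumours, at an unadjusted p of 0.0523 in edgeR's test. Itga9, a tenascin receptor subunit, ranged over 16.9 to 19.7 CPM in NP+ and 13.9 to 28.9 CPM in NP-. Itga2b, the platelet subunit that pairs with Itgb3, ranged over 5.54 to 8.33 CPM in NP+ and 3.40 to 10.9 CPM in NP-, and its log2 fold change of 0.13 (SE 0.51) turned to -0.08 under upper-quartile scaling and -0.16 under scaling by total counts. Markers of platelets and megakaryocytes summed to 12.2 to 18.6 CPM in NP+ and 12.4 to 41.3 CPM in NP-, with overlap. Gp1bb, a platelet receptor gene, had 0 counts in every NP+ library and 2, 0 and 0 counts in NP-.

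**Figure D3:**
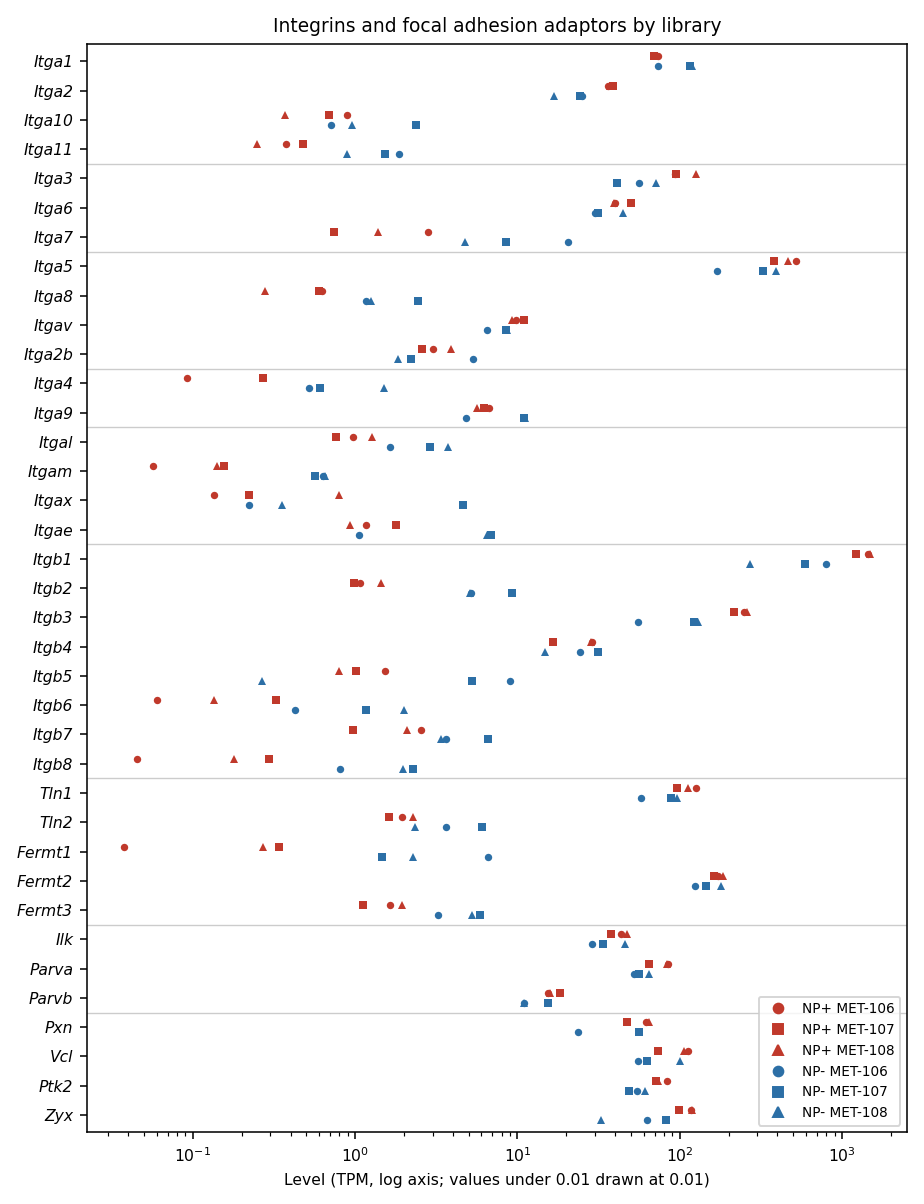
Level (TPM, log axis) of each of the 37 genes in every library, NP+ in red above NP- in blue, with a shape for each tumour and lines between roles. Itgb1 has the highest level, 1383 ± 144 TPM in NP+ and 553 ± 264 TPM in NP-, and the genes under about 10 TPM lie mostly to the right in NP-.

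Per length, the beta subunits as a whole summed to 1654 ± 174 TPM in NP+ and 697 ± 242 TPM in NP- (SD, n = 3, exact two-sided permutation p = 0.1, the smallest that 3 against 3 libraries allow). The alpha subunits summed to 738 ± 67.2 TPM in NP+ and 559 ± 147 TPM in NP- (exact permutation p = 0.2). In level, Itgb1 came first among beta subunits in all 6 libraries, followed by Itgb3 and then Itgb4, and Itga5 came first among alpha subunits. Itgb1 made up 83.6, 83.8 and 83.6% of the beta sum in NP+ and 88.9, 77.0 and 63.4% in NP-. Itgb3 made up 14.4, 14.8 and 14.6% in NP+ and 6.24, 15.8 and 30.2% in NP-. The beta make-up was thus nearly the same in the 3 NP+ libraries and differed from tumour to tumour in NP-.

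Itga5 made up 65.7, 57.8 and 60.9% of the alpha sum in NP+ and 42.5, 55.2 and 57.3% in NP-. Itga1 made up 9.34, 10.6 and 9.26% in NP+ and 18.4, 19.6 and 17.2% in NP-. The share of Itga1 was lower and that of Itga5 higher in every NP+ library than in any NP- library (exact permutation p = 0.1 each). The ratio of Itga5 to Itga1 was accordingly 6.37 ± 0.80 in NP+ and 2.82 ± 0.51 in NP-, and that of Itga2 to Itga1 was 0.524 ± 0.034 in NP+ and 0.231 ± 0.103 in NP-. Itgb3 over its partner Itgav was 24.3 ± 4.28 in NP+ and 12.6 ± 3.54 in NP-, with no overlap either (exact permutation p = 0.1). Ratios of genes within a library do not depend on how libraries are scaled. Among 11 ratios and 25 shares computed, none could pass 0.05 in a design of this size.

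**Figure D4:**
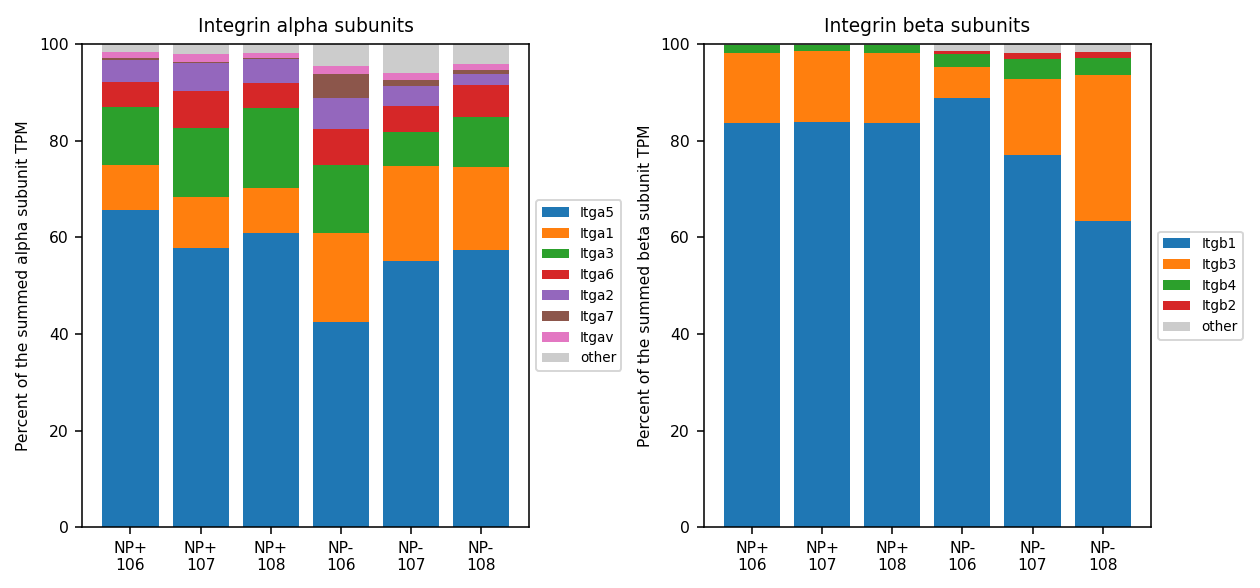
Share of each integrin in the summed TPM of the alpha subunits (left) and beta subunits (right), 1 bar per library, NP+ before NP-. Itga1 takes 9.26 to 10.6% of the alpha sum in NP+ and 17.2 to 19.6% in NP-, and the 3 NP+ bars of the beta panel are nearly alike.

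The leukocyte subunits were scarce in both fractions. Of the 4 leukocyte alpha subunits (Itgal, Itgam, Itgax, Itgae), 3 were lower at an unadjusted p under 0.05 and 2 did not overlap, beside 23.5% and 24.1% of all genes under 5 CPM, and their median log2 fold change was -1.81, against -1.46 for those genes. Itgb2, the common beta subunit of leukocyte integrins, stood at 1.26, 1.18 and 1.73 CPM in NP+ and at 5.89, 9.48 and 5.28 CPM in NP-. The groups did not overlap, and the log2 fold change was -2.30 (SE 0.49, edgeR adjusted p = 0.102). Of its partners, Itgal and Itgam also stood lower. Itgal, the alpha subunit of LFA-1, stood at 2.44, 1.99 and 3.29 CPM in NP+ and at 4.03, 6.44 and 8.34 CPM in NP-, with no overlap. Itgam, the myeloid alphaM subunit, had 4, 17 and 11 counts in NP+ and 57, 23 and 33 counts in NP-, and 68.7% of its exon bases are shared with a second gene ID of the same symbol on the same strand, so its counts are uncertain. Fermt3, the kindlin of blood cells, stood at 1.62, 1.15 and 1.96 CPM in NP+ and at 3.13, 5.11 and 4.61 CPM in NP-.

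Itga4, the VCAM-1 and fibronectin receptor subunit, stood at 0.494, 1.49 and 1.48 CPM in NP+ and at 2.72, 2.87 and 7.10 CPM in NP-, without overlap. Itgae and Itgb7, which form the receptor of intraepithelial lymphocytes for E-cadherin, were scarce too. Itgae ranged over 1.66 to 3.22 CPM in NP+ and 1.80 to 10.6 CPM in NP-, with overlap. Itgb7 ranged over 1.06 to 2.66 CPM in NP+ and 3.13 to 6.07 CPM in NP-, without overlap. Itgax, a subunit of dendritic cells and macrophages, ranged over 0.247 to 1.51 CPM in NP+ and 0.397 to 7.44 CPM in NP-, where its high value is that of MET-107 alone. Without the NP- library of MET-107 its log2 fold change of -1.94 turned to 0.59. The same library had the highest neutrophil markers, with S100a8 at 41.0 CPM.

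Lower values were also read for several genes known from epithelial, muscle or mesenchymal cells, though not for Itgb4. Fermt1, the kindlin of epithelial cells, stood at 0.082, 0.765 and 0.602 CPM in NP+ and at 14.0, 2.83 and 4.37 CPM in NP-. Each NP- library exceeded each NP+ library, with the highest value in MET-106, where Epcam stood at 20.8 CPM. The log2 fold change of Fermt1 was -3.85 (SE 0.94, edgeR adjusted p = 0.118), and -2.83 without the NP- library of MET-106. Itga7, a laminin receptor subunit of muscle and mural cells, stood at 4.34, 1.17 and 2.16 CPM in NP+ and at 30.5, 11.5 and 6.46 CPM in NP-. Its 3 NP- values followed the order of the summed pericyte and smooth muscle markers, 893, 284 and 164 CPM, and their part in the difference was not tested. The log2 fold change of Itga7 was -2.67 (SE 0.69, edgeR adjusted p = 0.124), and -1.75 without the NP- library of MET-106.

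Itgb8 and Itgb6, beta subunits that pair with alphav and are known for releasing TGF-beta, were scarce. Itgb8 stood at 0.192, 1.29 and 0.778 CPM in NP+ and at 3.34, 8.44 and 7.33 CPM in NP-. Itgb6 stood at 0.165, 0.911 and 0.376 CPM in NP+ and at 1.13, 2.79 and 4.81 CPM in NP-. Neither overlapped between the groups, and the log2 fold changes were -3.06 (SE 0.76) and -2.57 (SE 0.90), with edgeR adjusted p = 0.121 and 0.159. Itga8, an RGD-binding subunit of mesenchymal cells, stood at 1.76, 1.73 and 0.803 CPM in NP+ and at 3.22, 6.11 and 3.13 CPM in NP-. Itga11, a collagen receptor subunit of fibroblasts, stood at 0.741, 0.965 and 0.502 CPM in NP+ and at 3.55, 2.66 and 1.55 CPM in NP-. Both were without overlap, and Itga11 was highest in the NP- library with the fibroblast markers. Itga10, a collagen receptor subunit of cartilage, ranged over 0.753 to 1.78 CPM in NP+ and 1.38 to 4.16 CPM in NP-, and 33.5% of its exon bases are shared with Gm42957 on the same strand.

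For these scarce genes, the level of genes that endothelial cells are not known to use was read as well. The 1405 olfactory receptor genes had 0.033, 0.1003 and 0.058 CPM per kb in NP+ and 0.087, 0.422 and 0.337 CPM per kb in NP-. Scaled to exon length, that density gave a level that the NP- mean of Itga4, Itga8, Itga10, Itga11, Itgam, Itgax, Itgb6 and Itgb8 exceeded by no more than 2.1 times. Those 8 genes lie near this density, and it was itself lower in NP+ than in NP- within each tumour. Fermt1 stood at 1.33 times that level in NP+ and 4.40 times in NP-, and Itgb8 at 1.07 times in NP+ and 2.04 times in NP-, so their NP+ values were near it and the size of their fold changes is uncertain. Against that level, by group means, Itgal was higher in NP+, at 6.14 times in NP+ and 3.39 times in NP-. Its value was also higher in NP+ within each tumour. Group means were likewise higher for Itgb7 (11.3 times in NP+ and 5.58 times in NP-). They were also higher for Fermt3 (9.54 times in NP+ and 5.87 times in NP-) and Itgae (7.92 times in NP+ and 5.77 times in NP-). Within MET-107, however, Itgb7 (3.84 in NP+ and 5.24 in NP-) and Fermt3 (4.42 in NP+ and 4.68 in NP-) were lower in NP+. Within MET-108 Itgae was lower (6.2 in NP+ and 6.48 in NP-). For Itgb5 the group mean was 6.81 times in NP+ and 6.19 times in NP-, but most tumours went the other way. In MET-106 Itgb5 stood at 18.0 times in NP+ and 38.7 times in NP-, and in MET-107 at 4.0 and 4.19 times. Among the 8 genes, the group means of Itga4, Itga8, Itga10, Itga11 and Itgax were higher too. They ran from 1.30 to 3.99 times in NP+ and 1.07 to 2.07 times in NP-. Of these, only Itga8 and Itga10 were higher within each tumour. Itga4 and Itga11 were lower in NP+ in MET-106, and Itgax was lower in MET-107. The group means of Itgam, Itgb6 and Itgb8 stayed lower in NP+ against that level, and only Itgb8 was lower within each tumour. By group means Itgb2 exceeded that level 7.15 times in NP+ and 8.00 times in NP-, with MET-108 the other way. Itgb1 exceeded it 8450 times in NP+ and 695 times in NP-. Its part in the lower values of the 8 genes was not tested.

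Most of the abundant adaptors of the focal adhesion stood moderately higher in NP+. Tln1, which encodes talin-1, the activator and actin linker of integrins, stood at 475, 373 and 431 CPM in NP+ and at 210, 294 and 319 CPM in NP-. The groups did not overlap, and the log2 fold change was 0.64 (SE 0.21, edgeR adjusted p = 0.146). Fermt2, the broadly used kindlin and the adaptor with the highest level per length, stood at 249, 241 and 271 CPM in NP+ and at 174, 184 and 227 CPM in NP-. Its groups did not overlap either, but at a log2 fold change of 0.38 (SE 0.17) its unadjusted p was 0.0571 in edgeR's test. The talin paralogue Tln2 stood apart, at 11.7 to 16.4 CPM in NP+ and 14.6 to 37.3 CPM in NP-, with overlap, lower in MET-106 and MET-107 only.

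Zyx (chr6:42349630-42360213, plus strand), which encodes zyxin, a LIM protein recruited to adhesions under tension, had the largest fold among the adaptors on the higher side. It stood at 245, 212 and 252 CPM in NP+ and at 127, 150 and 59.3 CPM in NP-. NP+ was above NP- throughout, and MET-108 had the widest gap, as for Itgb1. The log2 fold change of Zyx was 1.07 (SE 0.31, edgeR adjusted p = 0.135). Ptk2, the focal adhesion kinase gene, stood at 160, 140 and 144 CPM in NP+ and at 102, 82.4 and 103 CPM in NP-. Vcl, the vinculin gene, stood at 227, 152 and 219 CPM in NP+ and at 107.8, 111 and 176 CPM in NP-. Ptk2 did not overlap between the groups and Vcl did, with log2 fold changes of 0.63 (SE 0.17) and 0.60 (SE 0.25) and edgeR adjusted p = 0.127 and 0.200. Of the exon bases of Vcl, 39.9% lie opposite Ap3m1, so without strand its reads cannot be told apart from those of Ap3m1 there. Pxn, the paxillin scaffold gene, ranged over 154 to 207 CPM in NP+ and 72.2 to 156 CPM in NP-, with its low value in the NP- library of MET-106.

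Parva, the alpha-parvin gene, stood at 328, 259 and 332 CPM in NP+ and at 199, 192 and 221 CPM in NP-. Parvb, the beta-parvin gene, stood at 26.2, 32.0 and 27.4 CPM in NP+ and at 18.0, 23.0 and 16.4 CPM in NP-. For both parvins, which bind integrin-linked kinase and actin, the groups did not overlap. The log2 fold changes were 0.59 (SE 0.17) for Parva and 0.58 (SE 0.23) for Parvb, with edgeR adjusted p = 0.139 and 0.187. Ilk itself ranged over 40.6 to 51.1 CPM in NP+ and 29.6 to 42.9 CPM in NP- and stood higher in 3 of 3 tumours, but 89.7% of its exon bases lie opposite Rrp8 and Taf10, so its counts are uncertain.

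**Figure D5:**
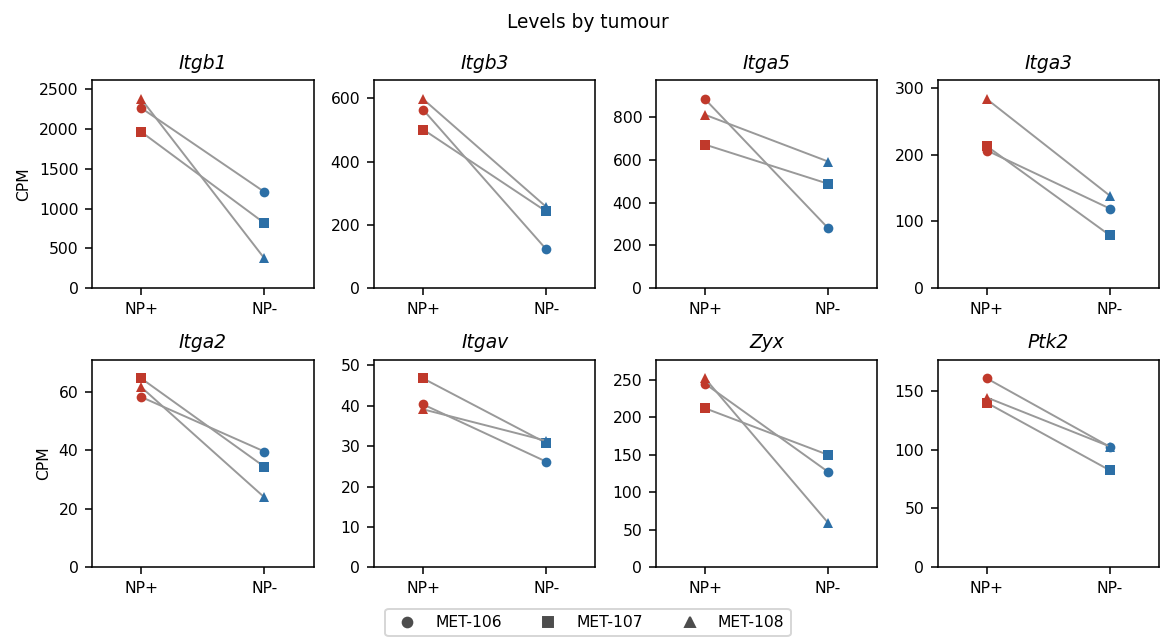
Level (CPM) of 6 integrin subunits and of Zyx and Ptk2, NP+ on the left and NP- on the right, with a line joining the 2 fractions of a tumour. All lines run downward, with the steepest line of Itgb1 and Zyx in MET-108 and of Itgb3 and Itga5 in MET-106.

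The scaling of libraries bears on the higher side. Over all genes the median log2 fold change, -0.29 under TMM, became -0.53 under upper-quartile scaling and -0.59 under scaling by total counts. Of the 12 genes higher at an unadjusted p under 0.05 with TMM, all kept a positive fold change under both other scalings, and 5 kept such a p: Itga2, Itga3, Itgb1, Itgb3 and Zyx. Itga5, Itgav, Tln1, Parva, Parvb, Vcl and Ptk2 did not.

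Relative to the summed endothelial markers of the same library, which is free of scaling, some of these genes stood higher in NP+ and others did not. Itgb3 came to 4.62 ± 0.338% of that sum in NP+ and 2.33 ± 0.525% in NP- (SD, n = 3), and Itgb1 to 18.3 ± 1.27% in NP+ and 9.94 ± 6.70% in NP-. For Itgb1 the NP- library of MET-106, at 17.0%, came close to the lowest NP+ library, at 17.1%. Itga5 came to 6.53 ± 0.292% in NP+ and 5.08 ± 1.01% in NP-, and Tln1 to 3.54 ± 0.082% in NP+ and 3.13 ± 0.163% in NP-. Zyx came to 1.97 ± 0.115% in NP+ and 1.35 ± 0.664% in NP-. Its NP- library of MET-106, at 1.79%, came close to its lowest NP+ library, at 1.85%. The NP- library of MET-108 was the lowest for Zyx, at 0.587%. In these 5 of the 22 genes with a mean of at least 5 CPM every NP+ library lay above every NP- library (exact permutation p = 0.1 each), beside 2.35% of all genes above that level. In 4 of the 22 every NP+ library lay below, beside 20.9%. Itga1 came to 1.39 ± 0.122% in NP+ and 2.43 ± 0.159% in NP-, Itga9 to 0.155 ± 0.019% in NP+ and 0.266 ± 0.063% in NP-, Tln2 to 0.116 ± 0.018% in NP+ and 0.304 ± 0.142% in NP-, and Itga7 to 0.021 ± 0.011% in NP+ and 0.207 ± 0.195% in NP-. The other 13, Itga2, Itga2b, Itga3, Itga6, Itgav, Itgb4, Fermt2, Ilk, Parva, Parvb, Pxn, Vcl and Ptk2, overlapped between the groups on this measure. Of the 15 genes under 5 CPM, 12 lay below and 0 above without overlap, beside 39.1% and 0.251% of all genes under that level.

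The beta and the alpha subunit with the highest levels, Itgb1 and Itga5, and Zyx stood higher in NP+ in 3 of 3 tumours. The widest gap was in MET-108 for Itgb1 and Zyx and in MET-106 for Itga5. Promoter sequences of these genes are shown. They run from 250 bases before to 50 bases after a start site, 5′ to 3′ on the gene's strand, from RefSeq on GRCm38.p6, and capitals mark GGGCGG or its reverse complement CCGCCC, the GC box bound by Sp1-type factors. The windows are chr8:128685404-128685703 (plus strand) for Itgb1, chr15:103366742-103367041 (minus strand) for Itga5 and chr6:42349578-42349877 (plus strand) for Zyx.
Itgb1: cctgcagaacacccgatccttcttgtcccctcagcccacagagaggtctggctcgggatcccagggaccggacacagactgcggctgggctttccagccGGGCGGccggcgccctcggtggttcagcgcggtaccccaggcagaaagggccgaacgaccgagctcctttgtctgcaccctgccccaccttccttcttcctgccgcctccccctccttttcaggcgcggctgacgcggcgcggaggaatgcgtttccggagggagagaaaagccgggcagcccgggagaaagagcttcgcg
Itga5: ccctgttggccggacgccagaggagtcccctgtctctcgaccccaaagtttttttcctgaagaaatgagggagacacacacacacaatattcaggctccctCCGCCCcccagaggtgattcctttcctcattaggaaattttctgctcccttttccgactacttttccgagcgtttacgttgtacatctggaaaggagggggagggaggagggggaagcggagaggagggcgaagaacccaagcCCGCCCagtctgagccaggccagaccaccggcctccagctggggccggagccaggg
Zyx: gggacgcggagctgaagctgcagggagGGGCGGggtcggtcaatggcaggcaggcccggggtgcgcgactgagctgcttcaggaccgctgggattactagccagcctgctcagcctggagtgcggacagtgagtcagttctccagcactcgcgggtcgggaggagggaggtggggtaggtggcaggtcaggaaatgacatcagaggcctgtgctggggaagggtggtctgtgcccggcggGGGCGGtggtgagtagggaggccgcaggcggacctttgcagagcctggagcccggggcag
The table held 29 windows of 26 of the 37 genes. GGGCGG, searched on both strands, was in 15 of the 29 windows (51.7%) and in 35.7% of all 32851 windows. Among genes with a mean of at least 5 CPM it was in 11 of 16 windows of the integrin and adaptor genes (68.8%), against 63.5% of all such genes' windows. For the higher genes alone (unadjusted p under 0.05), all of at least 5 CPM, it was in 9 of 10 windows (90.0%), against the same 63.5%. These windows cover 9 of the 12 higher genes. For the lower ones, most of them under 5 CPM, it was in 3 of 9 (33.3%), against 34.3% of the windows of all genes under 5 CPM. The CArG box of serum response factor was in 3 of the 29 windows (10.3%), those of Fermt2, Itgb6 and Vcl, and in 1.6% of all windows. The TEAD motif GGAATG, on both strands, was in 3 windows (10.3%) and in 14.7% of all, and the AP-1 motif TGANTCA, which is its own reverse complement, in 4 (13.8%) and in 7.8% of all. The ETS motif CAGGAAGT, on both strands, was in 1 window (3.4%) and in 3.3% of all. Motifs were counted separately, so different motifs may share bases, and a match describes letters, not binding.

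Outside the 37, 98 further genes of the pathway were read from the same fit. At an unadjusted p under 0.05, 28 were higher and 12 lower, beside the 8.01% and 15.4% of all genes, and 0 passed an adjusted p of 0.05 in edgeR's test. Of the 86 with a mean of at least 5 CPM, 28 were higher and 6 lower, beside 17.5% and 5.48%, with a median log2 fold change of 0.35, against 0.24 for all genes above that level. By role, 6 of 22 signalling and scaffold genes were higher and 0 lower, 6 of 20 actin linkers higher and 1 lower, 6 of 19 activation and inactivation genes higher and 3 lower, and 7 of 22 ligands higher and 5 lower.

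Several signalling genes of adhesion sites stood higher in NP+. Arhgap26, the gene of GRAF, which binds focal adhesion kinase, stood at 173, 124 and 148 CPM in NP+ and at 68.2, 55.4 and 49.5 CPM in NP-. Crk, an SH2 and SH3 adaptor, stood at 187, 220 and 216 CPM in NP+ and at 115, 59.9 and 62.1 CPM in NP-. Yes1, a Src family kinase gene, stood at 179, 159 and 191 CPM in NP+ and at 98.5, 78.3 and 57.5 CPM in NP-. None of these 3 overlapped between the groups, and the log2 fold changes were 1.36 (SE 0.20), 1.39 (SE 0.27) and 1.18 (SE 0.22), with edgeR adjusted p = 0.0668, 0.0903 and 0.0889.

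Among regulators of integrin activity, Kank3, of a talin-binding family, averaged 163 ± 16.7 CPM in NP+ and 86.9 ± 14.9 CPM in NP-. Rasip1 and Rasa3, both tied to the small GTPase Rap1 in endothelial cells or platelets, gave like values. Rasip1 averaged 154 ± 26.7 CPM in NP+ and 79.6 ± 20.0 CPM in NP-. Rasa3 averaged 155 ± 39.1 CPM in NP+, against 84.8 ± 10.9 CPM in NP-. These 3 stood higher in 3 of 3 tumours without overlap, with edgeR adjusted p = 0.0997, 0.117 and 0.123. Among actin linkers, Pdlim1, Tes and Csrp1, all LIM-domain proteins, had log2 fold changes of 0.65, 0.58 and 0.63 and edgeR adjusted p = 0.129, 0.134 and 0.155. Pdlim1 averaged 1817 ± 106.5 CPM in NP+ and 1155 ± 182 CPM in NP-.

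Among ligands, Ctgf, a matricellular protein that binds integrins, stood at 1065, 845 and 1458 CPM in NP+ and at 355, 306 and 159 CPM in NP-. The groups did not overlap, and the log2 fold change was 2.04 (SE 0.33, edgeR adjusted p = 0.0786). Icam1, the ligand of the leukocyte integrins, and Col4a2, a basement membrane collagen chain, had log2 fold changes of 1.25 (SE 0.22) and 1.20 (SE 0.21), both with edgeR adjusted p = 0.0875. The 5 ligands on the lower side, named after their values were seen, were Col1a1, Spp1, Thbs2, Vtn and Fbn1. Spp1 stood at 14.0, 15.9 and 9.88 CPM in NP+ and at 843, 16.3 and 3.43 CPM in NP-. Thbs2 stood at 2.42, 2.09 and 2.08 CPM in NP+ and at 120, 0.915 and 10.9 CPM in NP-. Both overlapped between the groups, with the high NP- value in MET-106, whereas Col1a1, Vtn and Fbn1 did not overlap. Col1a1 stood at 4.56, 2.46 and 1.31 CPM in NP+ and at 637, 18.2 and 17.6 CPM in NP-, so most of its NP- mean came from the library with the fibroblast markers.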

How the data were processed

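RNA of 3 NP+ and 3 NP- libraries was amplified with SMART-Seq v4 (not stranded) and read as 2 x 150 bp, per the labels' protocols. Groups and tumours come from the labels, and the 3 tumours are separate. The deposited files hold whole-number counts per gene. The submitters' processing notes list GRCm38 (mm10), DESeq2, featureCounts with Subread 1.5.2, STAR 2.5.2b and Trimmomatic 0.036. The sources used here do not name strand or multi-mapping settings. The authors' deposited table holds a signal per library (counts over size factors, 100% of them equal to the deposited counts within 0.01 reads), log2 fold changes of NP- over NP+ (signs turned here) and p-values.

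Counts of 23989 genes that passed filterByExpr (minimum count 10) were tested with edgeR 4.0.16 (R 4.3.3, quasi-likelihood, TMM) without a block, with Benjamini-Hochberg adjustment at 0.05. An SE is the fold change over the square root of F. The log2 ratios within a tumour use a pseudocount of 0.5 CPM. Each NP+ library shares its animal with 1 NP- library, and same-tumour deviations correlated at 0.28, 0.21 and 0.02, so the tumour block was fitted as an alternative. Other alternatives were DESeq2 1.42.0, limma-voom (limma 3.58.1), RLE, upper-quartile and total-count scaling, 2 other filters, and each library or tumour left out. Exact permutation tests ignore the pairing. Reads carry no molecular identifiers. The scripts were tested on simulated counts. The 37 genes, the pathway lists and the marker lists were chosen with earlier results of these data known. Values in every library are given for genes with an unadjusted p under 0.05 and the same direction in 3 tumours, and for the 3 alpha subunits, 3 beta subunits and 3 adaptors with the highest TPM. From each pathway list, up to 3 genes with the smallest p and a mean of at least 5 CPM are named.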

Additional observations from a re-analysis of the deposited data

How the results depend on the processing

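In the main edgeR fit no gene of the 37 passed the adjusted threshold in either direction. DESeq2 gave 9 higher and 7 lower. The same edgeR test gave 5 and 3 with no low-count filter and 0 and 1 with at least 5 CPM in 3 libraries. With libraries or tumours left out it gave 0 to 4 higher and 0 to 3 lower. The tumour as a replicate block, limma-voom and the other scalings gave 0 and 0. At an unadjusted p under 0.05, the 12 higher became 5 with upper-quartile scaling, 5 with total-count scaling and 6 with the 5 CPM filter, under which 23 of the 37 were tested. The 13 lower became 8 without the low-count filter, 4 with the 5 CPM filter and 4 to 12 with a library or tumour left out. The block gave 10 higher and 11 lower and changed no adjusted call. Of the 98 pathway genes, the 28 higher became 14, 13 and 14 with upper-quartile scaling, total-count scaling and the 5 CPM filter and 18 to 37 with a library or tumour left out, and the 12 lower became 5 with the 5 CPM filter and 4 to 12 with a library or tumour left out. The median log2 fold change of -0.35 reversed to 0.25 with the 5 CPM filter, which removes scarce genes, and ran from -0.45 to 0.025 with a library or tumour left out, positive without MET-107 only.

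Of 615 single fold changes under 17 alternatives, 568 kept their direction and side of the threshold, 33 passed it and 14 reversed, all in 3 genes. Itga2b (0.13) reversed to -0.083 with upper-quartile scaling, -0.16 with total-count scaling and -0.13 with the 5 CPM filter, and ran from -0.31 to 0.90 with a library or tumour left out (-0.15 with the NP- library of MET-108 out). Itgb4 (0.22) reversed to -0.021, -0.096 and -0.065 with the same 3 settings and ran from -0.058 to 0.47 with a library or tumour left out (-0.012 with the NP- library of MET-108 out). Itgax (-1.94) ran from -2.85 to 0.85 with a library or tumour left out, and was positive where the NP- library of MET-107 was out (0.59 with that library out alone). The cause was not tested. With 3 libraries a group, genes at a few counts per library carry the widest errors.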

Other observations

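Among 7 LIM and integrin-linked kinase partners, 2 were higher and 1 lower at an unadjusted p under 0.05, beside 8.01% and 15.4% of all genes. These were among the 6 with a mean of at least 5 CPM, beside 17.5% and 5.48% of all genes above that level. The PINCH paralogues, which bind integrin-linked kinase, differed in direction. Lims1, the gene of PINCH1, stood at 592, 519 and 548 CPM in NP+ and at 390, 365 and 447 CPM in NP- (MET-106, MET-107 and MET-108). Lims2, the gene of PINCH2, stood at 91.9, 77.3 and 118 CPM in NP+ and at 123, 167 and 131 CPM in NP-. Neither overlapped between the groups, and the log2 fold changes were 0.46 (SE 0.17) and -0.55 (SE 0.21), with edgeR adjusted p = 0.163 and 0.180. Ilkap, a phosphatase gene of the same pathway, stood at 48.1, 55.9 and 52.1 CPM in NP+ and at 36.6, 14.6 and 12.6 CPM in NP-, also without overlap. Among 8 tetraspanins, which sit beside laminin-binding integrins in the membrane, 1 was higher and 2 lower, beside the same 8.01% and 15.4%. The higher one was among 6 with a mean of at least 5 CPM, where 17.5% of all genes were higher. The 2 lower ones had a mean under 5 CPM, where 23.5% of all genes were lower. Cd151, the partner of alpha3beta1 and alpha6 integrins, averaged 154 ± 11.3 CPM in NP+ and 106.2 ± 15.8 CPM in NP- (SD, n = 3), higher in 3 of 3 tumours at an edgeR adjusted p of 0.149. Cd82 averaged 143 ± 15.7 CPM in NP+ and 87.2 ± 44.9 CPM in NP-, with overlap. Cd63 averaged 312 ± 34.8 CPM in NP+, against 368 ± 137 CPM in NP-, with overlap as well.

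Genes in general varied less among NP+ libraries than among NP- libraries, the integrin and adaptor genes included. For the 22 genes with a mean of at least 5 CPM, the median coefficient of variation over 3 tumours was 11.7% in NP+ and 28.2% in NP-, and it was lower in NP+ for 20 of the 22 (90.9%), beside 83.3% of all genes above that level. The medians over all genes above that level were 12.0% in NP+ and 26.4% in NP-. The ratio of Itgb3 to Itgb1 was 0.173, 0.177 and 0.174 in NP+ and 0.070, 0.205 and 0.476 in NP-.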
